A study of Mus musculus with 10 samples.

Results

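The complement genes C1qa, C1qb, C1qc and Fcna were followed in hematopoietic progenitor cells of mouse bone marrow. They were chosen by name as 4 of the 12791 genes of the authors' deposited table, with earlier results of the same data in view, so the values below describe them and test no idea about them. C1qa, C1qb and C1qc encode the chains A, B and C of C1q, and Fcna encodes ficolin A.

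Bulk RNA sequencing covered 10 libraries of cells from C57BL/6 mice that lacked lineage markers and Sca-1 and carried c-Kit. There were 3 KDR-positive libraries and 4 KDR-negative libraries from mice carrying GL261, a mouse glioma line, at week 4, and 3 naive libraries from tumor-free mice. KDR is a receptor of vascular endothelial growth factor. The tumor was implanted into mice with GFP knocked into the Kdr gene, and GFP marked the KDR-positive cells. The labels do not say whether naive mice carried the knock-in or whether the libraries within a group are separate mice. The authors' p-values may thus measure technical spread only.

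The single table holds 2 comparisons between groups and no value per library, so depth is unknown and values are given without a standard deviation. Adjusted p-values are the authors' own, adjusted over all genes, and are given as FDR, their name in the header. Its column names do not say which groups were compared. They are called the first and the second comparison, in column order. A positive log2 fold change means a higher level in the numerator group. The denominator groups of both comparisons matched each other in derived levels and are treated as 1 shared denominator group, so the comparisons are not independent of each other. The labels and header leave it unstated which of the 3 labelled groups is a numerator or a denominator.

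C1q is the recognition molecule of the classical complement pathway. Its 3 chains assemble into a molecule of collagen-like stalks and globular heads, which binds antibody complexes, pentraxins and dying cells and carries the proteases C1r and C1s. Ficolins are built on a like plan from a collagen-like stalk and a fibrinogen-like head, bind sugars and acetyl groups on microbes, and act through the proteases of the lectin pathway. C1q in tissues comes mainly from macrophages and dendritic cells, and mouse ficolin A from liver and from macrophages, while mouse ficolin B, encoded by Fcnb, is a product of developing myeloid cells.

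The C1q genes lie next to each other in the order C1qb, C1qc, C1qa on chromosome 4, and Fcna lies on chromosome 2. The letters around the starts of C1qb, C1qc and Fcna are shown, with those of Fcnb, the other ficolin gene, beside them. Each window runs from 250 bases before to 50 bases after the start. C1qb, C1qc and Fcna are 3 of the 4 members, and the letters of C1qa were not analysed here. The sequences are those of RefSeq on GRCm38.p6, all read on the minus strand, and lie at chr4:136886151-136886450 for C1qb, chr4:136892865-136893164 for C1qc, chr2:25627925-25628224 for Fcna and chr2:28084829-28085128 for Fcnb. Capitals mark GAGGAA, the core bound by the myeloid factor PU.1, and TGCTGAC, the half-site of Maf factors, on either strand.
C1qb: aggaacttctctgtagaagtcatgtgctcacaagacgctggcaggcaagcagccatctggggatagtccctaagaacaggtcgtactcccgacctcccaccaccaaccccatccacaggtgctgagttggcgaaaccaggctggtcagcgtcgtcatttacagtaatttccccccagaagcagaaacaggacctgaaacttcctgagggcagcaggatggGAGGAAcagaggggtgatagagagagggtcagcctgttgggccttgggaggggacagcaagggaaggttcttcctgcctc
C1qc: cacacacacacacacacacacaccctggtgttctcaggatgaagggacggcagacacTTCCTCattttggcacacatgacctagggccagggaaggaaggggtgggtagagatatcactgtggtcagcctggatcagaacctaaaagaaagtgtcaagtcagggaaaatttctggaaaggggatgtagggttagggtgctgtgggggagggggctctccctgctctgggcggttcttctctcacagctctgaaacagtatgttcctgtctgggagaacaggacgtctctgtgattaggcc
Fcna: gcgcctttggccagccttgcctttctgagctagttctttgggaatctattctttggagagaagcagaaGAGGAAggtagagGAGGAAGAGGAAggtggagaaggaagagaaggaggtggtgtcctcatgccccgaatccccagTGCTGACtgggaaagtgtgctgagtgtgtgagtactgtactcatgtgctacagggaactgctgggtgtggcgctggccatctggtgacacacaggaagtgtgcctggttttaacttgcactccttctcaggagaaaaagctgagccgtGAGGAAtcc
Fcnb: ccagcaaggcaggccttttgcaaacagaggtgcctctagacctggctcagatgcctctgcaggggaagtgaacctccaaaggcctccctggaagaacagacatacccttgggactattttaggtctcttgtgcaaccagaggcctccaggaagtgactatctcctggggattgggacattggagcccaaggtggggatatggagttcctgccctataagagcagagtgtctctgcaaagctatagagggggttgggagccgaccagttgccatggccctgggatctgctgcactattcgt

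GAGGAA or its reverse complement was found once each in the C1qb and C1qc windows and 4 times in the Fcna window, where a pair stands back to back. It is present in 28.3% of 32851 mouse windows of the same length, so its presence is common. TGCTGAC was found once, in Fcna, and is present in 4.67% of all windows. No base is shared between the motifs. The Fcnb window held neither, and TATAAA, the TATA box, was in none of the 4 windows. These matches are letters in a window and not known sites, and a link between them and the fold changes was not tested.

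All 4 genes were far higher in the numerator group of the first comparison. The authors' deposited table gives log2 fold changes of 5.001 for C1qa (FDR = 4e-32), 4.999 for C1qb (FDR = 1.4e-29), 5.07 for C1qc (FDR = 2.4e-30) and 5.24 for Fcna (FDR = 6.7e-28). As folds these are 32.0 for C1qa, 32.0 for C1qb, 33.6 for C1qc and 37.7 for Fcna. Of all genes 18.8% were called higher and 3.49% lower in that comparison at an FDR under 0.05, and the members were all among the higher ones. By size of p they ranked 14 for C1qa, 16 for C1qc, 18 for C1qb and 23 for Fcna, out of 12791 genes in the authors' deposited table.

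In the second comparison all 4 lay lower in the numerator group. The authors' deposited table gives log2 fold changes of -2.41 for C1qa (FDR = 0.0195) and -2.51 for Fcna (FDR = 0.0374), which passed the threshold of 0.05. C1qc at -2.33 (FDR = 0.0734) and C1qb at -2.24 (FDR = 0.0971) did not pass it in the authors' deposited table. As ratios, C1qa was 5.30-fold and Fcna 5.71-fold lower in the numerator group. Few genes were called in the second comparison, 0.0391% lower and 0.0704% higher. That is 5 lower and 9 higher genes, 10 of these 14 with snoRNA or microRNA names, and 43 genes had an unadjusted p under 0.05. As a share of all 12791 genes this is well below 0.05, the share such p-values have where no gene differs. The p-values of the second comparison thus run high, and a gene not called there is not shown to be unchanged. The 3 other genes called lower were Eef1a1 at -16.12, Acat3 at -4.44 and Snord15a at -3.18 in the authors' deposited table, named after their values were seen. Eef1a1 had a derived level of 0.132 CPM in the second numerator group, 9345 CPM in the denominator group and 32245 CPM in the first. The source of its near absence from 1 group was not tested. By size of p the members ranked 13 for C1qa, 14 for Fcna, 15 for C1qc and 17 for C1qb.

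**Figure D1:**
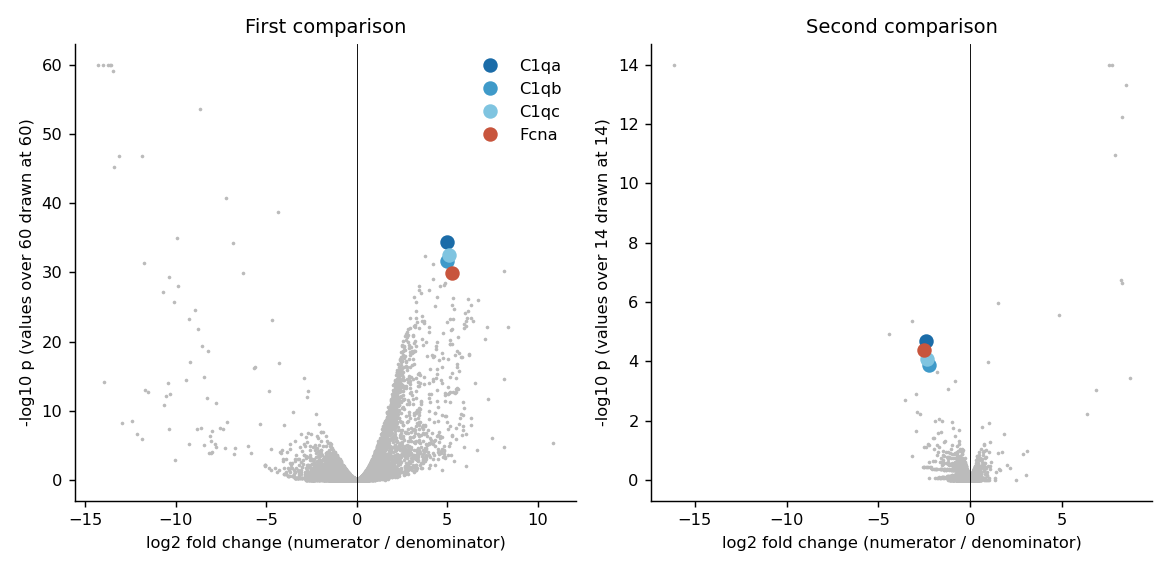
Each point is a gene of the authors' deposited table, with its log2 fold change on the x axis and -log10 of its p-value on the y axis, for the first comparison on the left and the second on the right. The 3 C1q chains and Fcna, in color, sit together near 5 on the right side of the first comparison and between -2.51 and -2.24 on the left side of the second.

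Levels in each group were derived from the authors' mean CPM and fold changes and carry no error. C1qa had 678 CPM in the numerator group of the first comparison, 3.89 CPM in that of the second and 20.9 CPM in the shared denominator group. C1qb had 685, 4.43 and 21.2 CPM in the same groups, in that order. The 2 chains thus span the same range, high in the first numerator group and lowest in the second.

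C1qc had 688 CPM in the first numerator group, 3.97 CPM in the second numerator group and 20.2 CPM in the denominator group. Fcna had 793 CPM in the first numerator group, 3.61 CPM in the second numerator group and 20.8 CPM in the denominator group. For every member the order was the first numerator group, then the denominator group, then the second numerator group, and the last step passed the threshold for C1qa and Fcna and missed it for C1qb and C1qc. The denominator level was derived from each comparison, with weights chosen so that the 2 results match best over 9044 genes, C1qa among them. For C1qa the results were 21.2 CPM from the first and 20.6 CPM from the second, a closeness that the fit sought and that is no separate check. In bulk RNA, fewer cells that hold a transcript and less transcript per cell cannot be told apart.

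The 3 chains of C1q stayed close to each other. Their log2 fold changes spanned 0.070 (first comparison) and 0.17 (second comparison), and with Fcna included 0.24 and 0.28. On log2 CPM their derived levels spanned 0.022 in the first numerator group, 0.19 in the second numerator group and 0.063 in the denominator group. Per kilobase of the longest coding transcript of GENCODE M21, the first numerator group held 652 CPM for C1qa, 630 for C1qb, 572 for C1qc and 577 for Fcna. On that scale the 4 members ranged from 2.63 to 4.07 CPM per kilobase in the second numerator group and from 15.1 to 20.1 in the denominator group.

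**Figure D2:**
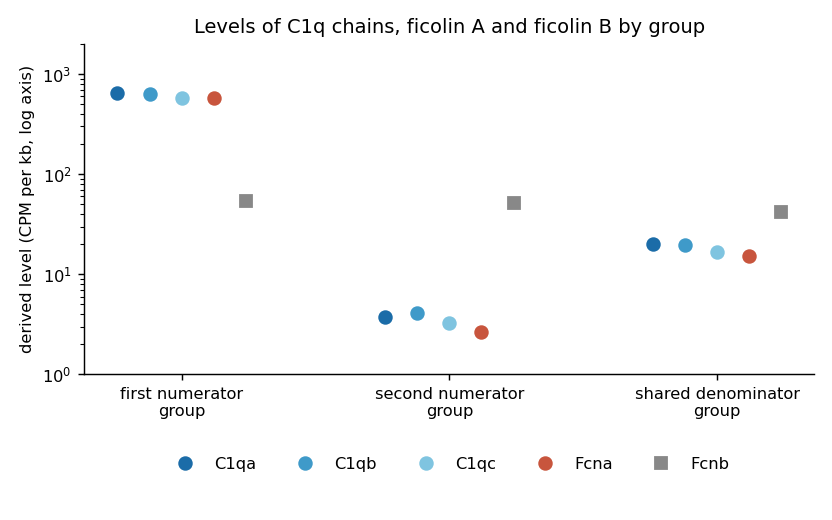
Derived levels in CPM per kilobase of transcript, on a log axis, for C1qa, C1qb, C1qc and Fcna (circles) and Fcnb (squares) in the first numerator group, the second numerator group and the shared denominator group. The 4 circles move as 1 cluster, from 572 to 652 in the first numerator group, 2.63 to 4.07 in the second numerator group and 15.1 to 20.1 in the denominator group, and no error can be drawn since the table has no value per library.

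The numerator groups of the comparisons were not set against each other in the table. The difference of the fold changes was 7.41 (log2) for C1qa, 7.24 for C1qb, 7.40 for C1qc and 7.75 for Fcna, higher in the first numerator group. This difference was not tested, and no test of it can be made without values per library. It rests on the scale of the table: derived totals were 2127130 CPM in the first numerator group and 723665 CPM in the second. With the totals of the groups in each comparison set equal, the median log2 fold change of the members was 3.54 (first) and -2.33 (second).

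The size of the first fold change rests on the scale of the table. The authors' mean CPM values came to 1414420 over all genes for the first comparison, against 732013 for the second, and the derived totals of the first numerator and denominator groups differed by 1.49 (log2). Setting these totals equal lowers every fold change of the first comparison by that amount, and the median of the members is then 3.54, an 11.7-fold difference, against 5.03 as deposited. Over all genes the median log2 fold change was -0.13 (first) and 0.0013 (second) as deposited. No member changed direction under either scale.

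A shared read source can be set beside Fcna alone. Of its 1374 exon bases in GENCODE M21, 90 are shared with exons of Fcnaos, a gene on the opposite strand, and none with any other gene. Exons of C1qa, C1qb and C1qc shared no base with another gene. The sources used here do not say whether reads were counted by strand, so reads of Fcna and Fcnaos in the shared bases cannot be told apart.

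The neighbors of the members gave other values. Ephb2, the measured gene on one side of the C1q genes, which encodes an ephrin receptor, stood at -2.42 in the first comparison (FDR = 0.442) and Kdm1a, a histone demethylase gene beyond it, at -0.11 (FDR = 0.918) in the authors' deposited table. On the other side Zbtb40 stood at -0.91 (FDR = 0.604) and Cdc42, which encodes a small GTPase of the actin cytoskeleton, at 1.70 (FDR = 2.3e-08) in the authors' deposited table. At equal totals Cdc42 remains above 0. Beside Fcna the authors' deposited table gives 1.15 for Tmem141 (FDR = 0.00504), which falls below 0 at equal totals, 0.30 for B230208H17Rik (FDR = 0.517), -0.16 for Bmyc (FDR = 0.811) and 0.08 for Camsap1 (FDR = 1). None of these neighbors was called in the second comparison, where their log2 fold changes lay between -0.13 and 0.11.

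Components that act with C1q were higher in the first numerator group more often than not. In the classical pathway list 4 of 6 measured genes were called higher, none was lower, and the median log2 fold change was 2.96. Over all genes 18.8% were called higher and 3.49% lower in the first comparison, the background for this list and those below. C4b, which encodes complement C4, stood at 5.28 (FDR = 3.7e-06) and C2, which encodes its partner in the C3 convertase, at 4.49 (FDR = 0.00067) in the authors' deposited table. The C1r protease genes C1ra and C1rb stood at 2.24 (FDR = 2.9e-05) and 3.68 (FDR = 5.5e-07) in the authors' deposited table, and as near-identical copies their split is uncertain. C3, the component on which all pathways meet, stood at -0.68 (FDR = 0.0864) in the authors' deposited table. C4b had a derived level of 26.8 CPM in the first numerator group, 0.532 CPM in the second numerator group and 0.611 CPM in the denominator group. None was called in the second comparison, where C4b stood at -0.03, C2 at -0.64, C1ra at -0.49 and C1rb at -0.62 in the authors' deposited table (FDR = 1 for each).

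The 2 ficolin genes had different values. For Fcnb the authors' deposited table gives 0.37 in the first comparison (FDR = 0.519) and 0.29 in the second (FDR = 1). Its derived level was 63.8 CPM in the first numerator group, 60.4 CPM in the second numerator group and 49.5 CPM in the denominator group. Its groups thus lay within 49.5 to 63.8 CPM on the deposited scale, while those of Fcna ran from 3.61 to 793 CPM. At equal totals the first log2 fold change of Fcnb is -1.125 and that of Fcna 3.75. The difference in fold change between the genes was not tested. Fcnb was the only lectin pathway gene of the list in the table, and C8g, at -0.79 (FDR = 0.769), the only terminal component, in the authors' deposited table.

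In the alternative pathway 1 of 3 measured genes was called higher. This was Cfp, which encodes properdin, the stabilizer of the alternative C3 convertase, at 2.98 (FDR = 8.1e-14) in the first comparison, with -0.12 in the second (FDR = 1), in the authors' deposited table. Its derived level was 424 CPM in the first numerator group, 49.2 CPM in the second numerator group and 53.7 CPM in the denominator group.

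Regulators of complement were called higher for 5 of 7 genes, with none lower and a median of 1.49, and 3 of the 5 stay above 0 at equal totals. Daf2 stood at 4.53 and Cd55 at 1.86 in the authors' deposited table; both encode forms of decay-accelerating factor and are close copies, so their split is uncertain. Clu, which encodes the fluid-phase inhibitor clusterin, stood at 2.96 in the authors' deposited table. Cr1l, which encodes the rodent regulator Crry, at 1.49 and Cd59a, which encodes an inhibitor of the membrane attack complex, at 1.22 in the authors' deposited table both fall below 0 at equal totals.

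Receptors for complement fragments were called higher for 3 of 5 genes, with none lower and a median of 2.13. Vsig4, a receptor for C3 fragments on tissue macrophages, stood at 5.87 (FDR = 8.6e-07), Itgax at 4.20 and Itgb2 at 2.13 in the authors' deposited table. Itgax and Itgb2 encode the subunits of complement receptor 4. Over all complement lists other than the members, 13 of 23 measured genes were called higher in the first comparison and none lower, with a median of 1.49, against 18.8% higher and a median of -0.13 over all genes. At equal totals 11 of the 13 stay above 0. None of the 23 was called in the second comparison, and their median there was -0.18.

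Proteins that bind C1q or take up cells coated with it went in both directions. Of 13 measured genes 8 were called higher in the first comparison, 7 of which stay above 0 at equal totals, and 1 lower. Over all genes 18.8% were called higher and 3.49% lower. The apoptotic cell receptors Mertk at 5.53 (FDR = 3.2e-15) and Axl at 4.997 (FDR = 3.1e-21) had first fold changes of the size seen for the members in the authors' deposited table. Their ligands Gas6 and Pros1 stood at 3.16 and 1.74, and Stab2, which encodes another receptor for dying cells, at 5.50 in the authors' deposited table. Lrp1, at 3.57, and Calr, at 2.08 in the authors' deposited table, encode a pair of proteins that can bind the stalk of C1q at the cell surface. C1qbp, which encodes a mostly mitochondrial protein that binds the C1q heads, stood at 1.32 in the authors' deposited table and falls below 0 at equal totals. Cd93, a surface protein of progenitors and endothelium once described as a C1q receptor, was the gene called lower, at -1.51 (FDR = 4.3e-05) in the authors' deposited table. None was called in the second comparison, where Mertk stood at -2.54, Axl at -1.78 and Cd93 at 0.03 in the authors' deposited table (FDR = 1 for each). The mean of Mertk there was -0.57 log2 CPM in the authors' deposited table, under 1 CPM.

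**Figure D3:**
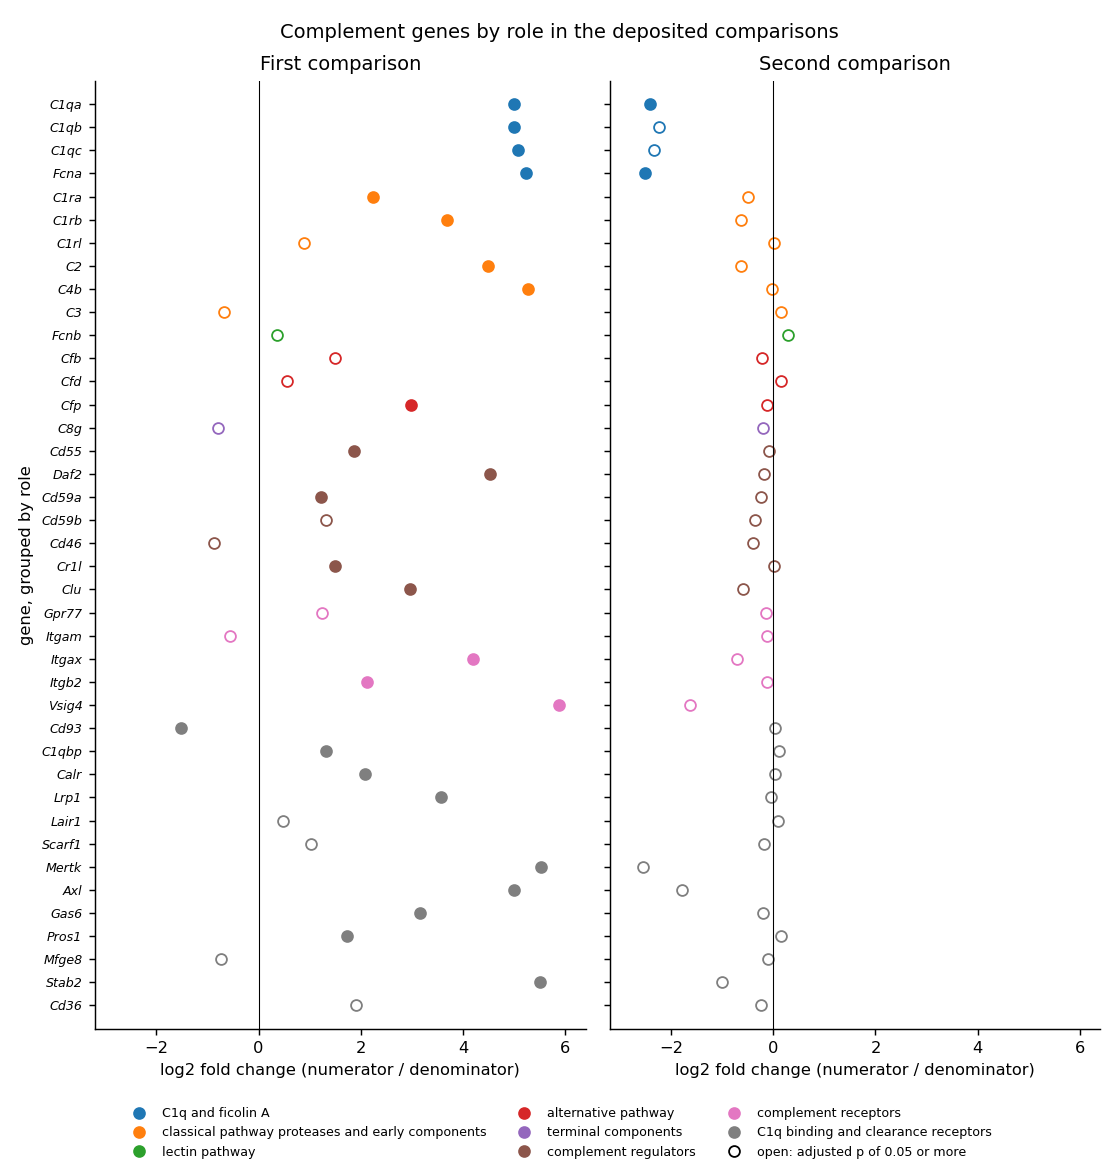
The log2 fold change of each listed complement gene in the first comparison (left) and the second (right), grouped by role, with filled points for an FDR under 0.05 in the authors' deposited table and open points for the others. In the first comparison 13 of 23 genes beside the members were called higher, against 18.8% of all genes. Of the 13, Cd59a and Cr1l fall below 0 at equal totals, as does C1qbp among the binding proteins. In the second, C1qa and Fcna were the only filled points of those shown.

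Transcription factors of macrophages were called higher for 10 of 15 genes in the first comparison and lower for none. Over all genes these shares were 18.8% and 3.49%. At equal totals 5 of the 10 stay above 0, and the median log2 fold change of the list is -0.27, against 1.22 as deposited. Maf, which encodes a factor of macrophages and lymphocytes, stood at 5.13 (FDR = 7.1e-14) and Nr1h3, which encodes the sterol receptor LXR alpha, at 4.44 (FDR = 4.4e-12) in the authors' deposited table. Maf had a derived level of 61.7 CPM in the first numerator group, 0.852 CPM in the second numerator group and 1.66 CPM in the denominator group. Sfpi1, the table's name for the gene of PU.1, stood at 0.90 (FDR = 0.0197) and falls below 0 at equal totals, and Irf8 stood at 0.33 (FDR = 0.628), in the authors' deposited table. None was called in the second comparison, and Maf stood at -0.87, Nr1h3 at -0.37 and Sfpi1 at 0.03 in the authors' deposited table (FDR = 1 for each).

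The 6 genes nearest to the mean of the members over both fold changes, among 9844 genes with a mean of at least 4 CPM in the first comparison, were Ubd, Fabp4, Cd5l, Timd4, Slco2b1 and Spic. Likeness was the straight-line distance over 2 values that share a denominator group, from 0.17 (log2) for Ubd to 0.47 for Spic, and is a description only. Ubd, a ubiquitin-like modifier gene, stood at 5.01 and -2.21, and Fabp4, a fatty acid carrier gene, at 5.39 and -2.32 in the authors' deposited table. Cd5l, which encodes a secreted protein of tissue macrophages, stood at 5.17 and -2.73, and Timd4, a receptor gene for dying cells, at 5.50 and -2.43 in the authors' deposited table. The organic anion transporter gene Slco2b1 stood at 5.26 and -1.97, and Spic, a factor of iron-recycling macrophages, at 5.31 and -1.97 in the authors' deposited table. All 6 were called in the first comparison and none in the second, where each had an FDR of 1. The level filter used the first comparison alone, so a gene could pass through the group where it is high. Ubd, Timd4 and Slco2b1 had means of -1.18, -0.69 and -0.15 log2 CPM in the second comparison in the authors' deposited table, under 1 CPM, so their second fold changes rest on very low values. With levels added to the distance, Cd5l ranked 2, Spic 20 and Fabp4 39, against 290 for Slco2b1, 671 for Timd4 and 2609 for Ubd.

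Markers of resident macrophages moved with the members in the first comparison. All 20 measured markers of that list were called higher, against 18.8% of all genes. The median log2 fold change of the markers was 4.86, and all of them stay above 0 at equal totals. Their summed derived level was 4605 CPM in the first numerator group, 245 CPM in the second numerator group and 323 CPM in the denominator group, and that of the 4 members was 2845, 15.9 and 83.1 CPM in the same groups, in that order. None of the markers was under 1 CPM in the first numerator group, 7 were in the second numerator group and 2 in the denominator group. Apoe stood at 3.28, Mrc1, the mannose receptor gene, at 5.25 and Hmox1, which encodes the heme-degrading enzyme, at 4.33 in the authors' deposited table.

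The markers had a median of -1.48 in the second comparison, 18 of 20 lay below 0 and none was called. Hmox1 at -1.82 (FDR = 0.165) and Mrc1 at -1.82 (FDR = 1) were near the members, while Apoe stood at -0.11, Emr1, the F4/80 gene, at -0.31 and Vcam1 at -0.33 in the authors' deposited table (FDR = 1 for each). Over the whole list the values ran from -2.73 for Cd5l to 0.13 for Trem2 in the authors' deposited table. Siglec1 at -2.56, Mertk at -2.54 and Timd4 at -2.43 also reached the values of the members. The means of these 3 genes were under 1 CPM in the second comparison. The macrophage markers' part in the result for C1q and ficolin A was not tested.

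Marker lists of other cell types are given by their counts in the first comparison, where 18.8% of all genes were called higher and 3.49% lower. All 10 measured megakaryocyte and platelet markers were called higher, with a median of 2.93, and all stay above 0 at equal totals. Neutrophil markers were called higher for 8 of 11, monocyte and dendritic cell markers for 4 of 14 with 4 lower, eosinophil markers for 4 of 7 with 1 lower and erythroid markers for 4 of 9 with 1 lower. B cell markers were called lower for 6 of 8, T and NK cell markers for 3 of 6 with 2 higher, and endothelial and stromal markers for 1 of 8 with 2 higher and a median of 0.04. The shares called higher among the endothelial and stromal and the monocyte and dendritic cell markers were not far from that background. Of these called-higher genes Ly6c2, Prg2, Nkg7 and Tie1 fall below 0 at equal totals. No gene of any of these lists was called in the second comparison, and the megakaryocyte and platelet list had a median of -0.52. The part of these cell types in the result was not tested.

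Genes of the sort were measured in every group. Kit, the c-Kit gene, had a derived level of 38.8 CPM in the first numerator group, 60.3 CPM in the second numerator group and 58.7 CPM in the denominator group. Ly6a, the Sca-1 gene, was present although the sort was Sca-1-negative, at 37.2 CPM in the first numerator group, 27.2 CPM in the second numerator group and 27.6 CPM in the denominator group. These levels are on the deposited scale. At equal totals the median first log2 fold change of the 4 listed sort genes is -1.57, against -0.08 as deposited. For Kdr the authors' deposited table gives 1.26 in the first comparison (FDR = 0.617) and -1.11 in the second (FDR = 1). At equal totals the first of these falls below 0. Its derived level was 2.24 CPM in the first numerator group, 0.378 CPM in the second and 0.875 CPM in the denominator group. The fold changes of Kdr thus rest on very low values and do not tell which group was KDR-positive.

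**Figure D4:**
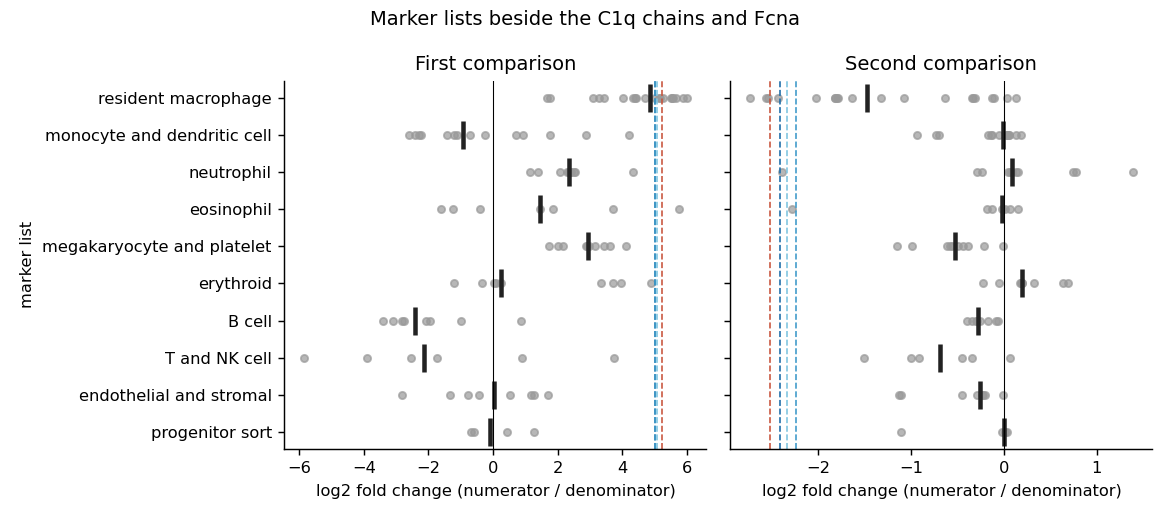
Log2 fold changes of the measured genes of each marker list (gray points) with the list median (black bar), for the first comparison on the left and the second on the right, and the values of C1qa, C1qb, C1qc and Fcna as dashed lines. The median of the resident macrophage list is the nearest of the shown medians to the dashed lines in both comparisons, at 4.86 and -1.48.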

How the data were processed

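RNA of sorted progenitor cells from mouse bone marrow was sequenced in 10 libraries of 3 groups, assigned from their titles. Libraries were made from total RNA with an Illumina TruSeq kit, per the labels' protocols. Bowtie 0.12.2 and the build mm8 are named without roles, per the submitters' processing notes. How reads were counted, with which annotation and by which test, is not given in the sources used.

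The authors deposited 1 table of 12791 genes, with log2 fold changes, mean log2 CPM, p-values and adjusted p-values for 2 comparisons, per the file headers; base 2 was inferred from the match of the levels between comparisons. The deposited adjusted p-values equal a Benjamini-Hochberg adjustment recomputed over all genes. No value per library is in the table, so the planned edgeR or limma tests were not run and the authors' p-values stand; depth is unknown. Group levels were derived as D = mean / (w x fold + 1 - w) on the linear CPM scale. Weights w of 0.48 and 0.59 for the numerator groups made the denominator levels of 9044 genes above 3 log2 CPM match best; at equal weights these differed by a median of 0.0087 (log2), while the next pair of sides differed by 0.070. The weight fit and the adjustment were tested on simulated data. Analyses used Python 3.11.15, pandas 2.3.3 and numpy 2.4.6.

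Members and gene lists were chosen with earlier results of these data known. Named genes are the members, complement and C1q-binding genes past an adjusted p of 0.05, the gene with the smallest p of a list with none, 4 macrophage factors, flanking genes, the 6 nearest genes by fold change, clone names left out, and leading genes of other lists. Of the marker lists of other cell types mainly counts are given. Some genes are not reported here, and the list counts leave them out. Older names were matched through RefSeq. The alternatives were a stricter threshold, Bonferroni, a level filter, other scales, other weights, another distance and a shorter promoter window.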

Additional observations from a re-analysis of the deposited data

How the results depend on the processing

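No paired analysis was possible because the table holds no value per library, and leaving out replicates, other pseudocounts, DESeq2 size factors and count filters were not run for the same reason. All 4 members passed in the first comparison at an adjusted p under 0.01, under Bonferroni, with the adjustment recomputed and with genes under 1 CPM left out. In the second comparison 2 passed at 0.05, with the adjustment recomputed and with the level filter, but 0 at an adjusted p under 0.01 and 0 under Bonferroni over all genes. The members' median log2 fold change, 5.03 in the first comparison, was 5.17 centred on the median gene, 3.54 at equal totals and 3.55 at equal totals without Eef1a1, the last chosen after seeing the data. In the second comparison, at -2.37 as deposited, the same scales gave -2.37, -2.33 and -2.35. With equal weights the median level of the members was 661 CPM in the first numerator group, 3.45 CPM in the second numerator group and 19.1 CPM in the denominator group, against 687, 3.93 and 20.9 CPM with fitted weights. The median difference between the numerator groups, 7.40 (log2) from the fold changes, was 7.44 from the derived levels, both on the deposited scale. Complement genes past the threshold in the first comparison numbered 13 at 0.05 and 12 at 0.01. When mean levels were added to the distance, 1 of the 6 nearest genes was shared, Cd5l. The promoter matches were present in the same members in the shorter window. Without values per library, neither the spread nor the depth behind the low levels of the second numerator group can be given.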

Other observations

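Receptors for antibody, which share targets with C1q, were all called higher in the first comparison. These were 5 of 5 measured genes of the Fc receptor and pentraxin list, with a median log2 fold change of 2.49. Over all genes 18.8% were called higher. Fcgr1, the high-affinity IgG receptor gene, stood at 5.42 (FDR, the adjusted p, 1e-11), Fcer1g, the gene of the signaling chain, at 2.49 and Fcgr3 at 2.08 in the authors' deposited table. Fcgr2b falls below 0 at equal totals of the groups. None was called in the second comparison, where Fcgr1 stood at -0.25 (FDR = 1) in the authors' deposited table, against -2.41 for C1qa.

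Of 7 other measured genes with a C1q-type domain, 1 was called higher in the first comparison and none lower, with a median of -0.15. Over all genes 18.8% were called higher and the median was -0.13, so this count is near the background and says nothing particular to the family. The gene called was Mmrn1, which encodes a multimerin of platelet granules, at 1.79 (FDR = 4.3e-05), while Emilin2 stood at -0.71 (FDR = 0.149) and Emilin1 at 0.50 (FDR = 0.24) in the authors' deposited table. In the second comparison none was called.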
